A study of Mus musculus with 6 samples.

Results

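GENCODE M21, a mouse gene annotation on build GRCm38, holds 1021 genes of biotype miRNA whose symbol starts with Gm, the prefix of mouse gene models that have no curated name. Those with at least 20 reads summed over the 6 small RNA libraries are described here, and there were 437 of them. A read of 18 to 35 nt counted for an entry when it matched the entry exactly and in the sense direction, and 667 entries had 1 or more reads. The members were thus chosen by their summed reads, which are given as a description. The immunoprecipitate was the deepest library, and 59 of the 437 entries reached 20 reads through it alone, while 378 had 20 reads in the other 5 libraries. Just inside the threshold lay 8 entries with 20 or 21 reads and just outside it 4 with 18 or 19.

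The cells were mouse spermatogonial stem cells in culture, the stem cells of the male germ line. Per the labels they came from a male aged 15 days, an F1 of C57BL/6 and DBA2 that carried an actin-EGFP transgene, although the strain label gives C57BL/6 only, and they grew on mouse embryonic fibroblast feeders. Each of the 6 groups (NaIO4 being sodium periodate, Hen1 a small RNA methyltransferase and Mili a PIWI gene) had 1 library: untreated wild type cells, wild type RNA treated with NaIO4, untreated Hen1 knockout cells, Hen1 knockout RNA treated with NaIO4, untreated Mili knockout cells, and RNA pulled down with an antibody to MILI. Values for the 6 libraries are given below in that order. The knockouts were made with Cas9 and guide RNAs, and each line was grown from a single picked colony, so an effect of the deletion cannot be told apart from a feature of that clone. With 1 library per group no difference has a replicate check, no test was run, and every interval covers counting error only.

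A microRNA is cut by Drosha and Dicer from a hairpin, is usually shorter than a piRNA, and pairs with its targets through its seed, bases 2 to 8. PIWI-interacting RNAs (piRNAs) are longer small RNAs of the germ line that are made without Dicer, often begin with U (T in the reads), often match transposons, and in mouse are bound by PIWI proteins such as MILI. HEN1 adds a methyl group to the 2′-hydroxyl of the last base of animal piRNAs. NaIO4 oxidises RNA 3′ ends whose 2′ and 3′ hydroxyls are free, which keeps them out of a library, whereas methylated ends are spared. An entry annotated as a microRNA can therefore be set against length, first base, MILI binding, loss in the Mili knockout and the NaIO4 ratio.

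The libraries held 7322408, 10282416, 11702714, 2604390, 4808088 and 25240941 reads of 18 to 35 nt, and members took between 0.286% and 0.557% of them. In the Hen1 knockout with NaIO4, the smallest library, the 10 most abundant sequences held 1109643 reads. Reads of genes with a Mir name (454 genes with 20 reads, Mir5099 left out) made up 18.7%, 1.17%, 7.02%, 2.13%, 33.5% and 0.604% of the libraries. The 8 male germ line microRNAs of a fixed list summed to between 1805 and 156870 reads per 1000000 of these reads (rpm), and the 6 fibroblast ones to 2901, 193, 2859, 999, 8574 and 289 rpm. Both lists were thus highest in the Mili knockout, and their part in the results below was not tested. In such bulk RNA, fewer cells of a type and less RNA per cell cannot be told apart. Blood and muscle lists were also highest there, at 227 and 20.2 rpm against 112 and 8.06 rpm in wild type.

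Members were not independent of one another. Their reads were 7050 distinct sequences with 229119 reads, but their own counts summed to 2041947 because most sequences matched several entries, and 232 reads matched 1 annotated gene. Of the 437 members, 45 had a read that matched no other gene and 3 had 20 of them. Joining members that shared at least 50% of their joint reads gave 103 groups, 63 of them with 1 member, and the 5 most numerous groups held 236 members. Entry sequences were identical between some members, with 340 distinct sequences among 437 entries. By position, 190 entries lay between genes, 94 in introns, 90 antisense to a gene and 63 within an exon, and chromosome 2 held the most, 47. RefSeq (GRCm38.p6) had mature sequences for 1 of the 437, Gm24572.

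Each read sequence was placed in the first of 5 classes that applied: it matched transcripts of 20 or more genes that are neither microRNA nor structural RNA genes (repeat), a structural RNA, a transcript of another gene, a Mir-named gene alone, or no gene but Gm entries. By the class that held most of an entry's reads, 301 members were repeat, 89 gene transcript, 29 structural RNA, 11 Gm entries alone and 7 Mir-named microRNA. Levels and ratios given for a class below are of the reads placed in it, each counted once, and counts of entries go by the entry's class. The entries of these classes also differed in their median predicted fold. The median minimum free energy was -41.2 kcal/mol per 100 nt of entry for the microRNA class and -42.5 for Mir-named genes. It was -31.5 for repeat, -31.6 for gene transcript, -30.4 for structural and -39.3 for the Gm-alone class. Values overlapped, with quartiles of -43.4 and -28 for repeat and -47.6 and -38.4 for Mir-named genes. Median GC content was 35.1% for the microRNA class, 49.5% for repeat and 71.4% for the Gm-alone class. The part of GC content in the fold was not tested.

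**Figure D1:**
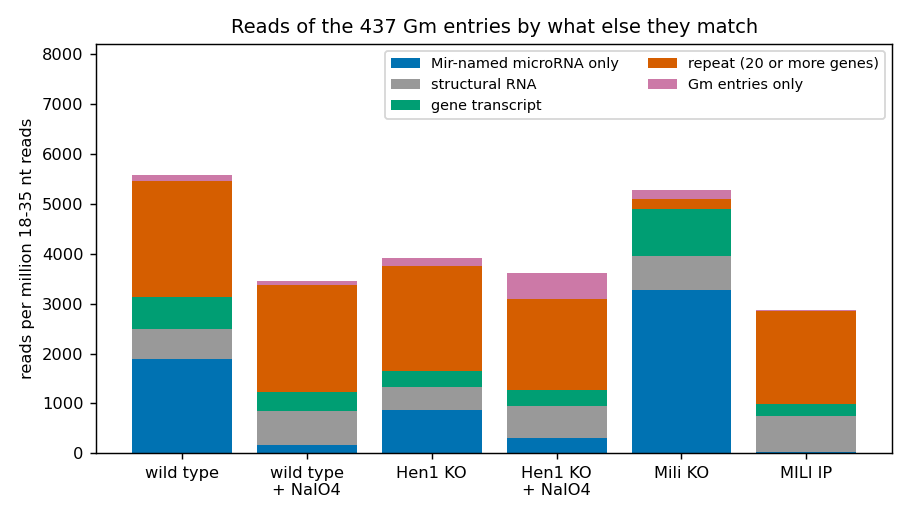
Stacked bars give the reads of the 437 Gm entries in each library as rpm of the 18 to 35 nt reads, each sequence counted once, divided by what else the sequence matched. The microRNA part ran from 29.2 rpm in the MILI immunoprecipitate to 3274 rpm in the Mili knockout, and the repeat part was at 214 rpm in the Mili knockout against 1832 to 2324 rpm in the other libraries.

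The sequences below are examples of reads under entries of each class. The first 4 are the reads that led the microRNA class, with the seed (bases 2 to 8) in capitals, and no pair of them has the same seed.
Gm25022: tAAGTGCCtgcatgtatatgc
Gm25943: aTACATACacgcacacataaga
Gm26092: aGTTGTGTgtgcatgttcatgtct
Gm23087: aTGTATGTgtgcatgtgcatgt
The next 3 are reads of repeat-class entries that matched 20, 24 and 58 genes, with base 1 in capitals here and in the sets that follow. Limits on which reads are printed, given at the end, applied to them, and they are not typical of the class. Its median entry had 427 genes per read. The Gm23159 read is itself not a repeat read by the rule above. Of the Gm25197 reads in wild type 71.6% began with T and 10.8% were 25 to 31 nt.
Gm23159: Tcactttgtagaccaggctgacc
Gm27690: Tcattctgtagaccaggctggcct
Gm25197: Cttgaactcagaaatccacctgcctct
The coding sequences of Ftl1 (ferritin light chain) and of the ribosomal protein genes Rpl37a and Rpl19 hold the next 4 (for Ftl1 not in each of its annotated transcripts), which are longer than the microRNAs.
Gm22751: Tctctttgagcgcctcactctcaagc
Gm22761: Tggcactgtggttcctgcatgaaaaca
Gm22759: Tacaacaccacctctgcagtcacagtga
Gm27288: Tcctgcgccggcttctcaggagatacc
Structural RNAs gave the next 3, from 5S ribosomal RNA, the 7SL RNA of the signal recognition particle and a serine tRNA.
Gm47301: Tctgatctcggaagctaagcagggtc
Gm47295: Tgggatcgcgcctgtgaatagcc
Gm44456: Gtagtcgtggccgagtgg
The last pair matched Gm entries alone and overlap each other.
Gm24187: Tccggtgcggagagccgttcgtct
Gm23935: Cggggtccggtgcggagagccgttcgtct

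Ratios below are of shares of the 18 to 35 nt reads, with 0.5 added to each count and a 95% interval from the counts. A member was called higher or lower when its ratio was 2-fold or more and the interval left out 1. In the Mili knockout against wild type, 17 members were higher and 211 lower, or 48.3% lower, where 2.63% of the 30333 annotated genes with 20 reads were higher and 56.8% lower. In the MILI immunoprecipitate against wild type total RNA, 27 members were higher and 135 lower, where 36.5% of all genes were higher and 11.6% lower. The 59 members that passed only through the immunoprecipitate were chosen by their reads there, so their ratios in it are no separate result. Without them, a choice made after seeing the data, both counts stayed within 1.5 times. The share of members lower in the knockout was thus near that of all genes, while their share higher in the immunoprecipitate, 6.18%, was below it. Members share reads, and by group the shares differed. Of the 103 groups, 9 were higher and 28 lower in the knockout, or 27.2% lower. In the immunoprecipitate 11 groups were higher and 40 lower, or 10.7% higher. The 30333 genes were not joined into groups by shared reads, so the group shares have no like value over all genes. Per Mir-named read in place of per read, 2 members were higher in the Mili knockout, while for the immunoprecipitate the split turned to 417 higher and 2 lower.

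With NaIO4 in wild type, 9 members were higher and 107 lower, where 14.9% of all genes were higher and 11.7% lower. Without the members that reached 20 reads only through the immunoprecipitate, chosen after seeing the data, 68 were lower. With NaIO4 in the Hen1 knockout, 93 were higher and 99 lower, against 9.44% and 33.0% of all genes. Leaving the 10 most abundant sequences out of the denominator, this became 154 higher and 22 lower. The ratio of these NaIO4 ratios, Hen1 knockout over wild type, was higher for 143 members and lower for 99, where 13.5% of all genes were higher and 39.7% lower. Untreated, the Hen1 knockout had 9 members higher and 64 lower than wild type, against 8.07% and 10.8% of all genes. Per Mir-named read these splits became 382 higher and 0 lower, 253 and 0, 6 and 240, and 192 and 0. Mir-named reads themselves were 18.7% of the wild type library and 1.17% of it with NaIO4, so counts of higher and lower members are shares of a library and not amounts.

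The median ratio with NaIO4 in wild type was 0.712 over members, 0.0792 over Mir-named genes and 1.28 over all genes. In the Mili knockout it was 0.265, 1.78 and 0.169, with 56 members at 0 reads there, and placing those at the limit that a count of 0 allows made it 0.305 for members and 0.269 for all genes. In the immunoprecipitate the medians were 0.668, 0.0406 and 1.74. Members lay between the Mir-named genes and all genes in these 3 comparisons, but not for NaIO4 in the Hen1 knockout, where the medians were 1.15, 0.342 and 0.506 (1.39 for members and 0.647 for all genes with counts of 0 at their limit). Over the 103 groups of members the median Mili ratio was 0.675. Members and the other lists share reads and control libraries, so these are descriptions.

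**Figure D2:**
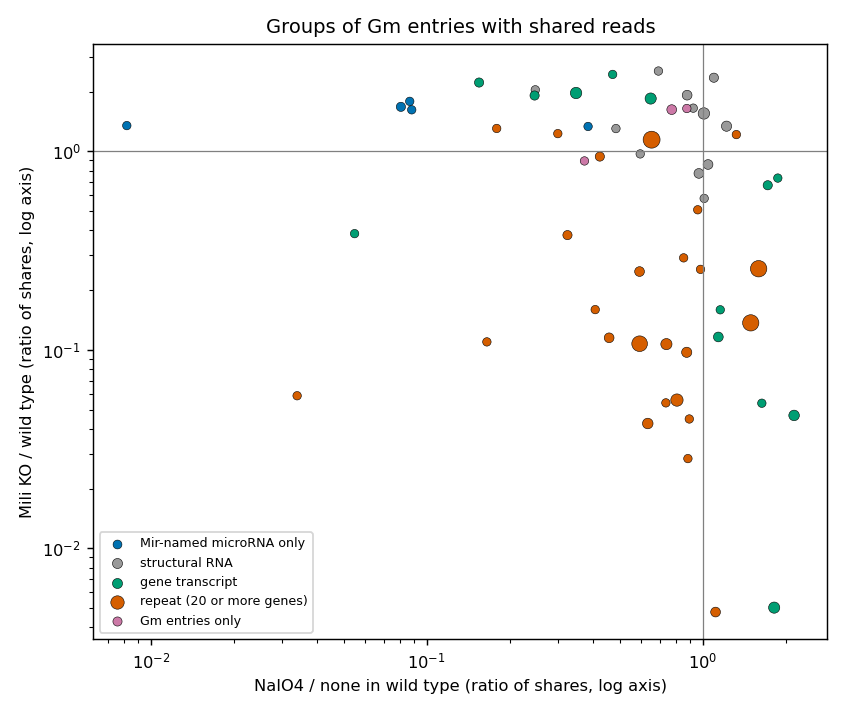
Each of 59 points is a group of Gm entries that share reads, with at least 50 reads over the 3 libraries drawn from, and the point grows with the number of members. The x axis is the NaIO4 ratio in wild type and the y axis the Mili knockout ratio, both ratios of shares on log axes with 0.5 added to each count, so points with 0 reads in a library are no bound. MicroRNA groups sit left of an NaIO4 ratio of 1 and above a Mili ratio of 1, repeat groups mostly below a Mili ratio of 1, and gene transcript groups both upper left and lower right.

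Of the 7 microRNA-class entries 6 were lower with NaIO4 in wild type and lower in the immunoprecipitate, and the reads of the class were of microRNA length. Of all genes 11.7% and 11.6% were lower in these comparisons. Reads of the class stood at 1892, 161, 866, 304, 3274 and 29.2 rpm, and 98.6% of the wild type reads were 20 to 24 nt long against 0.159% at 25 to 31 nt. The class ratio was 0.0851 (0.0809 to 0.0896) with NaIO4 in wild type and 0.352 (0.327 to 0.378) with NaIO4 in the Hen1 knockout. It was 0.458 (0.446 to 0.470) in the Hen1 knockout, 1.73 (1.69 to 1.77) for Mili loss and 0.0154 (0.0143 to 0.0166) in the immunoprecipitate. None of the 7 was lower in the Mili knockout and 1 was higher there, Gm22401, which is named after its values were seen. It had 0, 0, 5, 0, 11 and 4 reads, passed the minimum of 20 only through the immunoprecipitate, and is the entry not called with NaIO4 or in the immunoprecipitate. For comparison the medians over Mir-named genes, with which they share reads, were 0.0792 and 0.342 for NaIO4, 0.451 in the Hen1 knockout, 1.78 for Mili loss and 0.0406 in the immunoprecipitate. Per Mir-named read the wild type NaIO4 ratio turned to 1.36 and that of the Hen1 knockout to 1.16, the ratio of both to 0.851 from 4.13, the Hen1 knockout ratio to 1.22, and the Mili ratio to 0.968. Reads of this class match Mir-named genes by definition and are part of that denominator, so these values are no separate check.

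Gm25022 (chr2:10500822-10500904, plus strand, GRCm38) lies in an intron of Sfmbt2, a Polycomb gene whose intron carries the cluster of Mir466, Mir467 and Mir669 copies. It stood at 1094, 94.9, 525, 179, 1954 and 8.80 rpm, highest in the Mili knockout and lowest in the immunoprecipitate. Its most common length was 21 nt in each library, the printed read was 77.7% of its reads, and all of its reads also matched Mir467a copies. The ratios were 0.0868 (0.0812 to 0.0927) with NaIO4 in wild type and 0.00806 (0.00705 to 0.00920) in the immunoprecipitate, one of the 2 lowest there among members with 50 reads in the libraries compared.

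Gm25943 (chr2:10501109-10501198, plus strand) lies in the same intron and shared its reads with Mir466b and Mir466c copies. It stood at 515, 40.7, 229, 63.4, 871 and 14.3 rpm, the same order of libraries as Gm25022. Its NaIO4 ratio was 0.0792 (0.0716 to 0.0876) in wild type and 0.277 (0.237 to 0.324) in the Hen1 knockout.

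Further entries on chromosomes 2 and 7 were described after their values were seen. Gm26092 (chr2:10512203-10512299, plus strand), whose reads matched Mir669a copies, stood at 256, 22.6, 102, 54.1, 415 and 5.39 rpm. Gm25263 (chr2:10509885-10509984, plus strand), also read with Mir669a copies, stood at 7.65, 2.92, 2.65, 6.53, 10.2 and 0.317 rpm, and its NaIO4 ratio in the Hen1 knockout was 2.50 (1.39 to 4.48), on the other side of 1 from Gm26092 at 0.534 (0.448 to 0.635). Gm23087 (chr7:11350450-11350525, minus strand, between genes), read with Mir297 copies, had 43, 0, 29, 0, 38 and 1 reads. At 0 reads with NaIO4 it was at least 20.1-fold lower in wild type and at least 2.15-fold lower in the Hen1 knockout.

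The repeat class held the most members and the most abundant one, and its reads were low in the Mili knockout while mostly of microRNA length. They stood at 2324, 2151, 2086, 1832, 214 and 1862 rpm, so the Mili knockout was alone in being low, at a ratio of 0.0923 (0.0867 to 0.0983). The NaIO4 ratio was 0.925 (0.907 to 0.944) in wild type and 0.878 (0.851 to 0.906) in the Hen1 knockout, which per Mir-named read turned to 14.8 and 2.89, while the Mili ratio became 0.0516. In wild type between 71.3% and 72.6% (95% interval) of the reads were 20 to 24 nt, 15.4% were 25 to 31 nt and 73.5% began with T. Against wild type, 188 of the 301 entries, or 62.5%, were lower and 1 higher in the Mili knockout. That share is near the 56.8% of all genes that were lower there, and many of these entries share reads. In the immunoprecipitate 79, or 26.2%, were lower and none higher, where 11.6% of all genes were lower and 36.5% higher. The immunoprecipitate ratio of the class per Mir-named read was 24.9. Counting each distinct sequence once, the Mili ratio was 1.01 for the class, 1.21 for its member Gm26318 and 1.77 for Gm25190, where the knockout library had 234312 distinct sequences against 1089054 in wild type.

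First base and length divided these reads in the Mili knockout. Repeat reads of 25 to 31 nt that began with T stood at 246 rpm in wild type and 2.91 rpm in the Mili knockout, a ratio of 0.0123 (0.00731 to 0.0206), whereas those with another first base stood at 113 and 38.5 rpm, a ratio of 0.342 (0.292 to 0.401). Repeat reads of 20 to 24 nt that began with T stood at 1322 and 26.8 rpm, a ratio of 0.0204 (0.0171 to 0.0242), and those with another first base at 350 and 66.8 rpm, a ratio of 0.191 (0.170 to 0.214). At both lengths the T-first reads were thus lower in the knockout than the others, with intervals that do not overlap. Among the 25 to 31 nt repeat reads, base 10 was A in 57.7% of 2626 reads in wild type, 69.8% of 10700 in the immunoprecipitate and 1.01% of 199 in the Mili knockout. A lower share in the knockout was not particular to repeat reads. In the same order, A held base 10 in 26.0%, 45.3% and 7.29% of gene transcript reads of this length. The shares were 31.3%, 31.7% and 11.9% for structural reads and 13.6%, 20.7% and 14.5% for Gm-alone reads. An A at that base is known from piRNAs made by the ping-pong cycle, in which PIWI proteins cut transposon transcripts.

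The NaIO4 ratios also separated the first bases, most in the Hen1 knockout. T-first repeat reads of 20 to 24 nt had a NaIO4 ratio of 0.903 (0.879 to 0.927) in wild type and 0.537 (0.511 to 0.565) in the Hen1 knockout. The others had 1.01 (0.961 to 1.06) and 1.83 (1.73 to 1.94). At 25 to 31 nt the T-first reads had 1.39 (1.31 to 1.47) and 0.542 (0.481 to 0.611), and the others 1.11 (1.02 to 1.21) and 1.59 (1.44 to 1.75). In both length windows from 20 to 31 nt, T-first repeat reads of the Hen1 knockout were thus a lower share of the library with NaIO4. Those with another first base were a higher one. Over all first bases, repeat reads of 20 nt rose from 123 to 468 rpm with NaIO4 there, while those of 21, 22, 23 and 24 nt each fell. First bases were not divided by single length, so the part of the 20-nt reads in the ratio of 1.83 was not tested. Outside these lengths the T-first reads had 1.17 (1.03 to 1.34) at 18 to 19 nt and 0.804 (0.388 to 1.67) at 32 to 35 nt. Per Mir-named read all 4 values from 20 to 31 nt in the Hen1 knockout were above 1, at 1.77 and 1.79 for T-first reads and 6.04 and 5.23 for the others.

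Gm26318 (chrX:102255430-102255525, minus strand, antisense to Gm14858) had the most reads of any member, 37350. It stood at 643, 568, 580, 229, 18.1 and 766 rpm, low in the Mili knockout and at its highest in the immunoprecipitate. The Mili ratio was 0.0283 (0.0229 to 0.0350), the immunoprecipitate ratio 1.19 (1.15 to 1.23) and the NaIO4 ratios 0.884 (0.851 to 0.919) in wild type and 0.396 (0.364 to 0.430) in the Hen1 knockout. Its most common length was 22 nt in 5 of the 6 libraries, 83.0% of the wild type reads were 20 to 24 nt, and 86.6% began with T. Its leading read was 22 nt, began with T and matched 555 genes. Reads that began with the same 20 bases as that read, inside the entry or not, numbered 2956 in wild type, of which 2.44% were 25 to 31 nt and 92.9% lay inside the entry, and in the immunoprecipitate 2.17% of 7568 were 25 to 31 nt. Reads that run past the entry were thus few at these start sites.

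Gm25190 (chr10:116531646-116531740, minus strand, in an intron of Cnot2) led a group of 12 members that share reads. It stood at 670, 541, 454, 147, 34.1 and 778 rpm, with a Mili ratio of 0.0510 (0.0437 to 0.0596). In the same group Gm23840 (chr11:78754426-78754522, minus strand, between genes) stood at 671, 542, 453, 147, 34.3 and 778 rpm, and Gm22355 (chr2:167644364-167644459, minus strand, in an intron of Tmem189) at 588, 496, 417, 139, 19.3 and 673 rpm. In the Mili knockout 15.9% of the Gm25190 reads began with T, against 84.2% in wild type, and the most common length was 18 nt against 22 nt. The reads left in the knockout thus differed in length and first base from those of wild type.

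Gm25197 (chr13:73924585-73924710, minus strand, in an intron of Trip13) shared its group of 7 with Gm22411 (chr2:127891988-127892113, plus strand, in an intron of Acoxl) and Gm23413 (chr16:4057373-4057497, minus strand, in an intron of Trap1). It stood at 588, 405, 565, 341, 48.9 and 246 rpm, low in the Mili knockout, at 0.0833 (0.0730 to 0.0949), and also below wild type in the immunoprecipitate, at 0.418 (0.402 to 0.434). Gm22411 stood at 581, 402, 560, 339, 48.3 and 243 rpm and Gm23413 at 507, 390, 526, 288, 20.0 and 238 rpm, each lowest in the Mili knockout as well. For Gm25197, reads with the first 20 bases of its leading read were 25 to 31 nt for 14.7% of 2492 in wild type. Gm25690 (chr4:141346164-141346240, plus strand, between genes) had one of the 2 lowest Mili ratios among members with 50 reads, 0.00335 (0.00133 to 0.00844), at 280, 212, 147, 46.5, 0.832 and 50.4 rpm. Gm23291 (chr12:99982775-99982852, minus strand) shared those reads and had the same ratio.

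Some repeat-class entries stood apart from this. Gm27299 (chr12:110674100-110674202, plus strand, antisense to 1700001K19Rik) had 220, 10, 136, 4, 8 and 8 reads, with a most common length of 19 nt in wild type and no T-first read there. Its NaIO4 ratio was among the 2 lowest of members with 50 reads in both genotypes, 0.0339 (0.0183 to 0.0630) in wild type and 0.148 (0.0579 to 0.379) in the Hen1 knockout. The latter rests on 4 reads with NaIO4, and it turned to 3.23 with shared reads split equally, 2.31 with distinct sequences, 1.49 at 20 to 31 nt and 1.34 with 1 mismatch allowed. Gm24810 (chr15:62652935-62653004, minus strand) and Gm26194 (chrX:39976301-39976371, minus strand) share reads and had the 2 highest Hen1 ratios among members with 50 reads. Gm24810 stood at 7.78, 5.93, 43.1, 23.4, 0 and 7.73 rpm, a Hen1 ratio of 5.49 (4.18 to 7.21), and Gm26194 had 5.35 (4.07 to 7.03). Both had 0 reads in the Mili knockout and were at least 12.5-fold lower there, and 84.2% of the wild type reads of each were 25 to 31 nt, the length range of piRNAs. However, 24.6% of the wild type reads of each began with T, so most lacked the first base common among piRNAs. Of the 48 wild type reads of each at 25 to 31 nt, 81.25% had the A at base 10 described above.

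The repeat groups with most members did not all share this pattern, and are given here after their values were seen. The group of 40 led by Gm23638, to which Gm25690 belongs, stood at 693, 409, 446, 394, 74.2 and 238 rpm, and the 50 members led by Gm22475 at 182, 291, 230, 324, 46.6 and 117 rpm. The 48 members led by Gm22029 stood at 32.6, 48.8, 47.2, 20.4, 4.37 and 49.6 rpm. These groups were lowest in the Mili knockout. The 58 members led by Gm24586 stood at 9.83, 6.42, 6.67, 15.4, 11.2 and 5.35 rpm, and the 40 led by Gm22008 at 1.78, 1.36, 1.03, 1.92, 3.12 and 3.05 rpm, neither of them lowest in the Mili knockout. The 4 members led by Gm28017 stood at 568, 498, 337, 655, 55.1 and 182 rpm, with an NaIO4 ratio of 1.95 (1.84 to 2.06) in the Hen1 knockout, so a repeat group low in the Mili knockout could be higher with NaIO4 there.

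**Figure D3:**
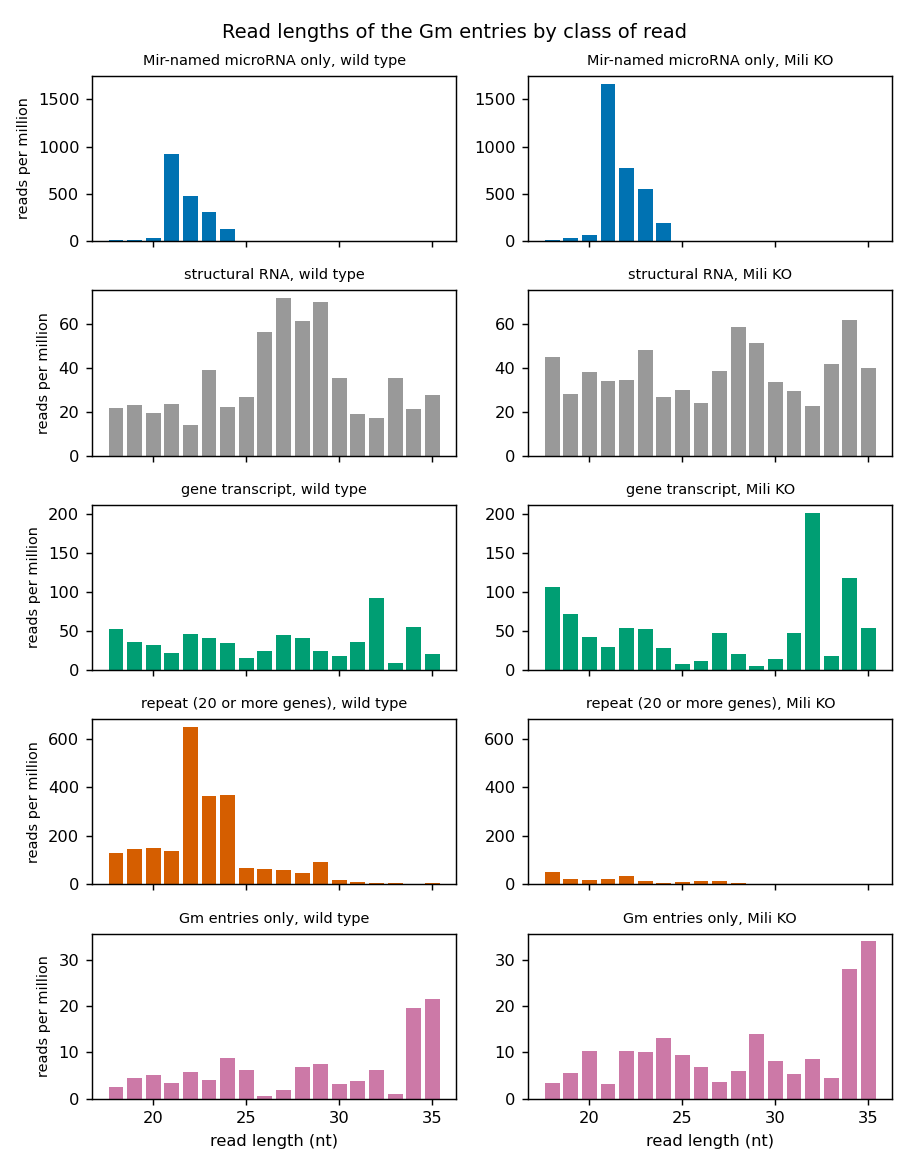
Bars give rpm by read length from 18 to 35 nt for each class of read, wild type on the left and Mili knockout on the right, with the same y axis within a row. Repeat reads peak at 22 nt in wild type, where they sum to 2324 rpm against 214 rpm in the Mili knockout, while microRNA reads peak at 21 nt in both.

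Gene transcript members differed by the transcript that their reads also matched, and 40 of the 89 lay within an exon. The class as a whole stood at 641, 371, 339, 311, 928 and 239 rpm and its Mili ratio was 1.45 (1.39 to 1.51), yet 20 of its 89 entries were lower and 8 higher in the Mili knockout. These were 22.5% and 8.99% of the entries, where 56.8% of all genes were lower and 2.63% higher in that knockout. With 39 of the 89 at 0 reads there, the median ratio over entries was 0.305, or 0.761 with those at the limit that a count of 0 allows. By length, its reads of 25 to 31 nt had a Mili ratio of 0.757 (0.693 to 0.826) and those of 32 to 35 nt one of 2.20 (2.05 to 2.37). With NaIO4 in wild type the ratios at these lengths were 1.01 (0.941 to 1.07) and 0.0668 (0.0555 to 0.0804). Per Mir-named read the immunoprecipitate ratio of the class, 0.373 (0.359 to 0.388), turned to 11.6, and the Mili ratio to 0.810.

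Of the entries inside ferritin light chain (Ftl1) sequence, Gm22774, Gm22752 and Gm22133 gave mostly long reads that were low in the Mili knockout. Gm22774 (chr17:6131836-6131944, minus strand, in the exon of the processed pseudogene Gm15590) stood at 11.1, 23.7, 15.4, 8.06, 0.416 and 25.4 rpm. In wild type 76.5% of its reads were 25 to 31 nt and 77.8% began with T. The NaIO4 ratio was 2.14 (1.66 to 2.75) in wild type and 0.535 (0.342 to 0.837) in the Hen1 knockout, and the Mili ratio was 0.0467 (0.0133 to 0.164). Gm22752 (chr3:93433197-93433305, minus strand, pseudogene Gm5278) shared its reads, with NaIO4 ratios of 2.18 (1.69 to 2.83) and 0.557 (0.352 to 0.881). All reads of the group of 5 that Gm22774 leads also matched Ftl1, Mir692-2 and Mir692-3.

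Gm22133 (chr7:45458089-45458197, minus strand), described after its values were seen, lies in an exon of Ftl1 itself. It stood at 32.8, 53.8, 24.9, 14.6, 1.66 and 59.3 rpm, with a Mili ratio of 0.0538 (0.0272 to 0.107) and 89.2% of its wild type reads at 25 to 31 nt. Gm22751 (chr11:45829779-45829887, plus strand, pseudogene Gm12164) had 5, 24, 35, 11, 0 and 128 reads, too few in the pair for a Mili call, and, at 6.78 (2.89 to 15.9), one of the 2 highest immunoprecipitate ratios among members with 50 reads. Its printed read of 26 nt shares 20 bases with the mature microRNA of Mir692-2, from base 2 of the microRNA on, and the exact mature sequence had 0 reads in the 5 total RNA libraries and 2 in the immunoprecipitate.
mmu-miR-692: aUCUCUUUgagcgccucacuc
This is the RefSeq sequence with its seed in capitals, shown because the reads start 1 base after it and run past its end.

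Ribosomal protein transcripts gave long reads as well. Gm22761 (chr2:103843418-103843513, minus strand, pseudogene Gm13879), whose group also matched Rpl37a and Mir682, stood at 11.1, 11.0, 7.18, 1.15, 0.416 and 7.05 rpm. Its wild type reads were 25 to 31 nt for 88.9% and T-first for 95.1%. It had the lowest ratio of NaIO4 ratios among members with 50 reads, 0.188 (0.0621 to 0.567), since NaIO4 gave 0.992 (0.746 to 1.32) in wild type and 0.186 (0.0639 to 0.542) in the Hen1 knockout. The latter value, and so the ranking, rests on 3 reads with NaIO4. Gm22759 (chr2:156322552-156322647, plus strand, pseudogene Gm14251), described after its values were seen, had 10, 22, 8, 3, 2 and 110 reads, most of them in the immunoprecipitate. Of its printed read 15 bases, from base 14 on, are the start of mature miR-682, which had 0 exact reads in each library.
mmu-miR-682: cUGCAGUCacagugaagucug

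Gm27288 (chr8:19493189-19493268, plus strand, pseudogene Rpl19-ps11), described after its values were seen, stood at 20.6, 37.5, 15.1, 6.14, 0 and 25.6 rpm. Its group of 7 shared 99.9% of its reads with Rpl19 and was at least 33.1-fold lower in the Mili knockout, where 0 of 4808088 reads allows up to 0.624 rpm. NaIO4 gave 1.82 (1.51 to 2.19) in wild type and 0.418 (0.252 to 0.692) in the Hen1 knockout for the group, the same sides of 1 as Gm22774.

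Entries read with Mir690 and with Gm42826, an annotated transcript still to be verified, were unlike these. Gm26339 (chr19:42274964-42275062, plus strand) stood at 90.5, 57.6, 24.4, 65.7, 185 and 12.2 rpm and Gm24714 (chr11:16645438-16645538, minus strand) at 104, 70.7, 31.1, 84.1, 202 and 16.2 rpm. Both had their most common length at 18 nt in each library and the lowest Hen1 ratios of members with 50 reads, 0.270 (0.235 to 0.310) and 0.299 (0.264 to 0.339). Their group of 7, led by Gm24047 (chr16:56070563-56070666, plus strand, in an intron of Senp7), shared 57.8% of its reads with Mir690 and 97.3% with Gm42826. Its leading read is 18 nt and matches the microRNA from base 2 on, whereas the exact mature sequence had 7, 4, 0, 0, 8 and 0 reads.
Gm24047: Aaggctaggctcacaacc
mmu-miR-690: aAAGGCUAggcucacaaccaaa
The read is given with base 1 in capitals and the microRNA with its seed.

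Gm25986 (chr16:62808349-62808416, plus strand, antisense to Arl13b), in a group of 2 that shared 99.0% of its reads with Gm42826, stood at 10.7, 1.17, 3.59, 7.30, 28.7 and 5.82 rpm. Its ratio of NaIO4 ratios was 18.2 (8.15 to 40.6) and its Mili ratio 2.69 (2.04 to 3.54), each among the 2 highest of members with 50 reads, and 18 nt was its most common length in 5 libraries. At 20 to 31 nt it had 4 reads in wild type and 0 in the Mili knockout. Gm23726 (chr3:18069326-18069392, plus strand) stood at 4.51, 5.25, 3.85, 0.768, 0.624 and 3.25 rpm, a ratio of NaIO4 ratios of 0.213 (0.0556 to 0.817). That ratio rests on 2 reads in the Hen1 knockout with NaIO4.

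The group of 8 led by Gm24715, described after its values were seen, shared 98.9% of its reads with Gm42826 and 28.9% with Mir690. It stood at 448, 156, 206, 239, 882 and 37.4 rpm, highest in the Mili knockout and lowest in the immunoprecipitate, as were microRNA reads. Its leading read was 32 nt long, at 88.2, 1.46, 56.1, 8.45, 197 and 0.238 rpm, which is longer than microRNAs. The pair of entries led by Gm26377, in Eef1a1 (translation elongation factor 1 alpha) and read in part with Mir703, stood at 5.33, 9.24, 8.03, 4.22, 3.54 and 15.8 rpm. Its Mili ratio was 0.675 (0.384 to 1.18) and its immunoprecipitate ratio 2.93 (2.12 to 4.07), so the low Mili ratio of the Ftl1 and Rpl19 entries was not found for it beyond counting error.

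Gm24572 (chr16:18284550-18284637, minus strand) lies in an exon of Dgcr8, the gene of the RNA-binding partner of Drosha, and is the entry with RefSeq mature sequences, both arms of miR-3618. It had 1, 2, 0, 3, 0 and 54 reads. It is one of the 59 members that reached 20 reads through the immunoprecipitate alone, so its high ratio there, 10.5 (2.08 to 53.4), was fixed by that choice. Of those 54 reads 90.7% were 25 to 31 nt and 98.1% began with T. Neither arm had an exact read, while reads with the first 18 bases of the 5p arm numbered 1, 1, 2, 3, 0 and 17.
mmu-miR-3618-5p: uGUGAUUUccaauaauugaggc
mmu-miR-3618-3p: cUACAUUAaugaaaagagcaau
The leading read of Gm24572 was 25 nt and holds the 22 bases of the 5p arm from its first base.

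**Figure D4:**
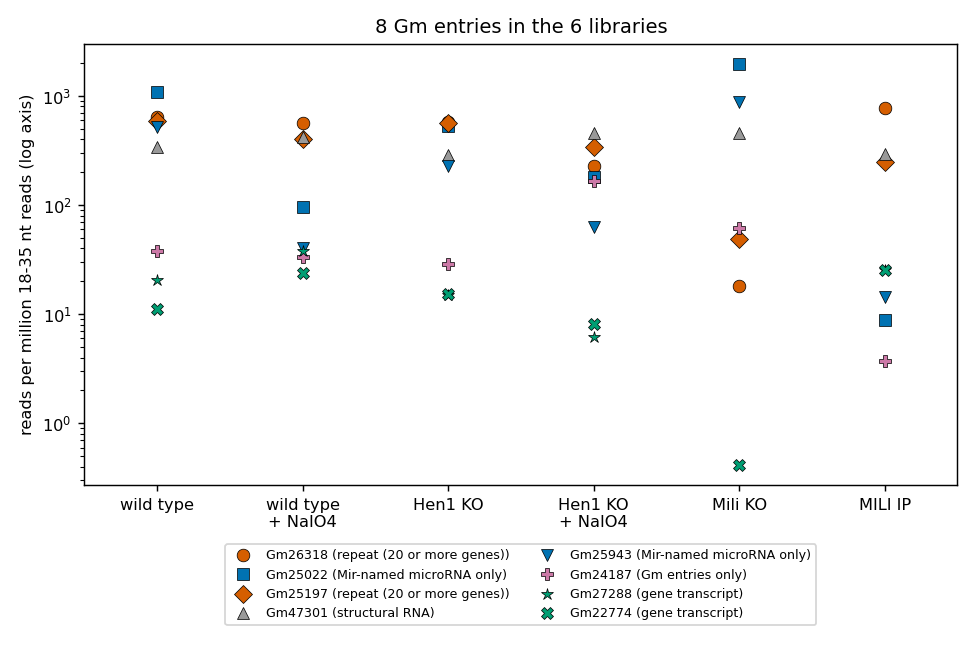
Points give rpm on a log axis for 8 Gm entries in the 6 libraries, with colour by class. Gm25022 and Gm25943 are highest in the Mili knockout and low with NaIO4 and in the immunoprecipitate, Gm26318 and Gm25197 are at 18.1 and 48.9 rpm in the Mili knockout, and Gm27288, at 0 reads there, has no point.

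As shares of a library, structural RNA reads varied less than those of the other classes. They stood at 602, 690, 455, 652, 683 and 723 rpm, and 56.3% of those in wild type were 25 to 31 nt. Per Mir-named read the ratios were 18.3 for NaIO4 in wild type and 0.635 for Mili loss. Of the 29 entries, 7 (24.1%) were higher and none lower in the Mili knockout, where 2.63% of all genes were higher and 56.8% lower. The immunoprecipitate had 8 (27.6%) higher and 7 (24.1%) lower, where 36.5% of all genes were higher and 11.6% lower. Reads that began with T held 44.4% of the class in wild type, 19.7% without Mili, and 66.1% in the immunoprecipitate. At 25 to 31 nt, T-first structural reads had a Mili ratio of 0.303 (0.265 to 0.346) and an immunoprecipitate ratio of 2.10 (1.98 to 2.22). The others had 1.31 (1.20 to 1.42) and 0.847 (0.793 to 0.905). NaIO4 ratios at this length were 1.67 (wild type) and 0.549 (Hen1 knockout) with a first T, and 1.16 and 1.55 without. At 20 to 24 nt the Mili ratios were 0.970 with a first T and 1.87 without. The Hen1 knockout NaIO4 ratios there were 1.52 and 1.76.

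Gm47301 (chr4:149817764-149817823, plus strand) lies in the 5S ribosomal RNA gene n-R5s193, and Gm47285 (chr12:85718503-85718563, minus strand) in n-R5s64. Gm47301 stood at 339, 416, 286, 457, 453 and 296 rpm, and its Mili ratio was 1.34 (1.26 to 1.42). Its most common length was 27 nt in wild type, 26 nt in the immunoprecipitate and 34 nt in the Mili knockout, and its T-first share was 46.8%, 85.3% and 14.7%. The printed 26-nt read of this entry stood at 7.65, 22.7, 20.0, 6.91, 0 and 23.7 rpm, so it had no read in the Mili knockout while the entry as a whole was not lower there. Gm47285 stood at 335, 413, 284, 453, 450 and 295 rpm, close to Gm47301, with which it shares reads.

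Other structural entries are given here after their values were seen. The 7SL group of Gm47295 (chr12:69159518-69159596, plus strand, in Rn7s1) stood at 146, 153, 62.2, 62.2, 126 and 222 rpm, with a Hen1 ratio of 0.425 (0.387 to 0.467). Gm44456 (chr13:21924928-21925016, minus strand) shared 99.3% of its reads with the serine tRNA gene n-TStga1 and stood at 22.8, 21.1, 54.9, 65.3, 37.6 and 79.8 rpm, with ratios of 2.40 (2.02 to 2.84) in the Hen1 knockout and 3.49 (2.98 to 4.08) in the immunoprecipitate. The U2 spliceosomal RNA group of 8 led by Gm44469 had 52, 74, 88, 13, 53 and 310 reads.

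Both named entries within small nucleolar RNAs, most of which guide rRNA modification, were higher in the Mili knockout and lower in the immunoprecipitate. Gm47309 (chr15:71794186-71794290, plus strand, in the snoRNA Gm22519) had 16, 30, 23, 7, 37 and 2 reads and one of the 2 highest Mili ratios among members with 50 reads, 3.46 (1.94 to 6.18). Gm49347, which shared 52.8% of its reads with Snora74a, had 70, 24, 51, 21, 94 and 2 reads, a Mili ratio of 2.04 and an immunoprecipitate ratio of 0.0103 (0.00291 to 0.0363), one of the 2 lowest.

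The 11 entries read with no other annotated gene were rich in G and C. Only annotated transcripts were searched, so a match of these reads to other parts of the genome or to rRNA and tRNA sequence outside that annotation was not tested. Reads of the class stood at 112, 81.1, 161, 505, 184 and 11.0 rpm, highest in the Hen1 knockout with NaIO4. In wild type 26.7% of the reads were 25 to 31 nt, 24.1% were 20 to 24 nt and 15.4% began with T, and the longest reads counted, 34 and 35 nt, were the most common. NaIO4 gave 0.722 (0.655 to 0.795) in wild type and 3.14 (2.93 to 3.37) in the Hen1 knockout, with the Mili ratio 1.64 (1.49 to 1.80) and the immunoprecipitate ratio 0.0981 (0.0856 to 0.112), which per Mir-named read turned to 3.05. Per Mir-named read the NaIO4 ratios became 11.5 and 10.3, the ratio of both turned to 0.896 from 4.35 (3.86 to 4.90), and the Mili ratio turned to 0.916.

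Gm24187 (chr13:9834469-9834525, minus strand, between genes) stood at 37.8, 33.2, 28.6, 166, 62.2 and 3.76 rpm, and its NaIO4 ratio in the Hen1 knockout was 5.81 (5.03 to 6.70), one of the 2 highest of members with 50 reads. Gm23388 (chr8:85112012-85112068, minus strand, in an intron of Zfp791) had 31, 16, 19, 31, 18 and 16 reads, with NaIO4 ratios of 0.373 (0.206 to 0.677) in wild type and 7.26 (4.13 to 12.8) in the Hen1 knockout. The group of 3 led by Gm23935 (chr16:11144125-11144181, plus strand, antisense to Zc3h7a), described after its values were seen, stood at 96.3, 74.4, 153, 496, 156 and 5.15 rpm, and its most common length was 35 nt in 5 libraries. All of these were thus highest in the Hen1 knockout library with NaIO4, the smallest one.

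**Figure D5:**
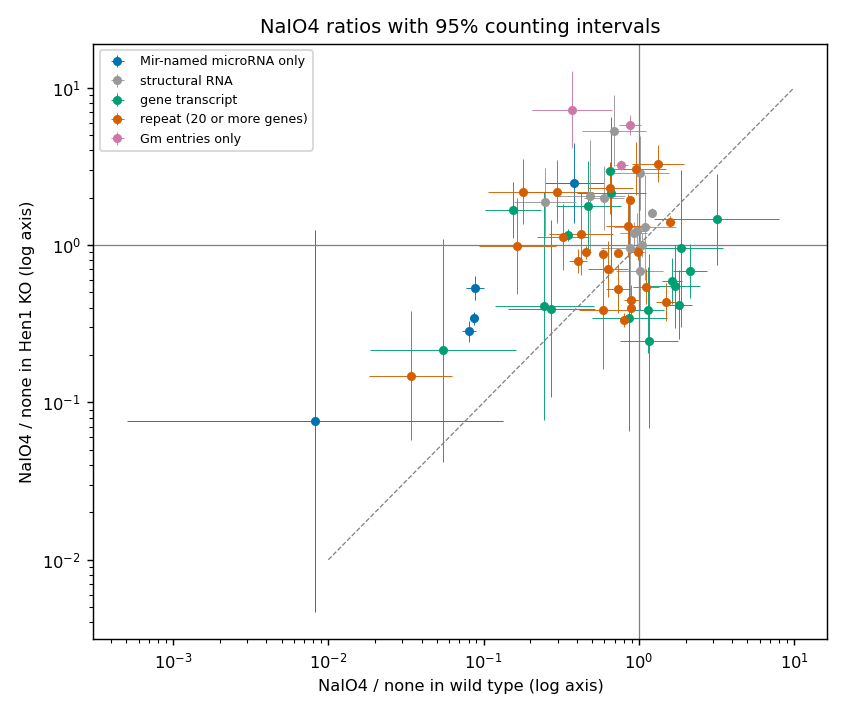
Each of 62 points is a group of Gm entries with its NaIO4 ratio in wild type on the x axis and in the Hen1 knockout on the y axis, both log, and bars give 95% counting intervals. The dashed line marks equal ratios. The microRNA groups lie left of 1 and above the line, Gm-alone groups near the top, and several gene transcript groups lie right of 1 and below it.

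The NaIO4 ratio was on opposite sides of 1 in the 2 genotypes, with both intervals leaving out 1, for 18 of the 103 groups. Of these 15 were lower in wild type and higher in the Hen1 knockout and 3 the reverse. Among the 437 members the numbers were 134, 70 and 64, or 30.7%, where 28.4% of all genes and 2.42% of Mir-named genes had such a pair of ratios. By direction, 16% of members and 4.17% of all genes were lower in wild type and higher in the Hen1 knockout, and 14.6% and 24.2% the reverse. The ratio for a genotype is of 1 library to 1 library, so these counts describe those libraries.

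The last counts join length, first base and calls, with the share of reads taken as the mean over the 6 libraries. Of the 437 members, 100 had 50% or more of their reads at 25 to 31 nt, 50% or more with a first T, and were lower in the Mili knockout, or 22.9% where 39.3% of all genes had this pattern. They were 88 repeat, 9 gene transcript and 3 Gm-alone entries in 6 groups, and 48 of them were in the group of Gm22029 and 40 in that of Gm22475. A further 83, or 19%, had 50% or more at 20 to 24 nt and were lower in the Mili knockout, against 10.3% of all genes. Of these 82 were repeat, and 40 were in the group of Gm23638. Lastly 37, or 8.47%, had 50% or more at 20 to 24 nt, were lower with NaIO4 in wild type and were not lower in the Mili knockout, against 82.2% of Mir-named genes and 2.41% of all genes. These 37 were 6 microRNA, 25 repeat, 4 gene transcript and 2 Gm-alone entries, and 18 of the 25 were in the group of Gm24586 and 6 in that of Gm22008, both at low rpm. Since members of a group share reads, these are counts of entries and not of independent cases.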

How the data were processed

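The authors deposited, for each library, a count of reads per distinct sequence, as whole numbers without scaling. The submitters' processing notes name Bowtie, without a version, and the mm10 build; no source used here states how reads were trimmed or filtered. Sequences of 18 to 35 nt were matched exactly and in sense to GENCODE M21 transcripts (GRCm38) with a script of this work (numba 0.67.0, pandas 2.3.3); no genome was searched. A read counted for each gene it matched. Ratios of shares (0.5 added to each count) were called at 2-fold where the 95% interval from the counts left out 1. The rule was checked on simulated counts that held counting error only, so the check cannot speak to replicate spread or shared reads. Shares of single libraries have exact Clopper-Pearson intervals. Reads carry no molecular identifiers, so intervals and limits for a count of 0 (3 reads) cover counting error only. Entries were folded with ViennaRNA 2.7.2. Members and lists were chosen with earlier results of these data known. Named entries were the 10 with most reads and, in each comparison, the 2 highest and 2 lowest ratios among those with 50 reads in its libraries. Not all leading reads are printed: those above 30 nt or matching a gene of a chromosome whose sequence is not printed here were among those left out. Alternatives changed the denominator, the sharing of reads, lengths, mismatches, minima and the fold.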

Additional observations from a re-analysis of the deposited data

Results flagged for a closer look

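In the 8 results below the NaIO4 ratio was on opposite sides of 1 in the wild type and the Hen1 knockout, with both counting intervals leaving out 1. Each ratio is of 1 library to 1 library, and the difference between the genotypes was not tested against replicate error. The Hen1 knockout library with NaIO4 was the smallest, at 2604390 reads, of which 10 sequences held 1109643, and its part in these ratios was not tested. The Gm-alone class had a wild type ratio of 0.722 and a Hen1 knockout ratio of 3.14, and its member Gm23388 had 0.373 and 7.26. The entries read with Gm42826 went the same way: Gm25986 had 0.113 and 2.06, Gm26339 had 0.636 and 2.69, and Gm24714 had 0.679 and 2.71. Gm49347, read with the snoRNA Snora74a, had 0.247 and 1.88. The reverse was found for the Ftl1 entries Gm22774, with 2.14 and 0.535, and Gm22752, with 2.18 and 0.557, which share their reads. The contrast depends on the denominator. Ratios per Mir-named read differ from those per read by a common factor within each genotype. Mir-named reads went from 18.7% to 1.17% with NaIO4 in wild type and from 7.02% to 2.13% in the Hen1 knockout. The change of denominator is thus no separate check of single entries. Per Mir-named read none of the 8 lay on opposite sides of 1: in the same order of genotypes the Gm-alone class had 11.5 and 10.3, Gm23388 5.97 and 23.9, Gm25986 1.81 and 6.79, Gm26339 10.2 and 8.86, Gm24714 10.9 and 8.92, Gm49347 3.96 and 6.18, Gm22774 34.2 and 1.76, and Gm22752 34.9 and 1.83.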

How the results depend on the processing

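Counts of the 437 members are given as higher then lower. Against Mir-named reads as the denominator, NaIO4 gave 382 and 0 for wild type cells, 253 and 0 for Hen1 knockout cells, the ratio of both 6 and 240, the untreated Hen1 knockout 192 and 0, the Mili knockout 2 higher, and the immunoprecipitate 417 and 2. Without the 10 most abundant sequences in the denominator, NaIO4 in the Hen1 knockout gave 154 and 22, and 37 were higher in the Mili knockout. With shared reads split equally (247 members), the 6 comparisons in the order above gave 0 and 16, 18 and 3, 30 and 1, 1 and 32, 5 and 49, and 5 and 78. With only reads that match 1 gene (3 members), they gave 0 and 1, 2 and 0, 0 and 0, 0 and 0, 2 and 0, and 0 and 3. With each distinct sequence counted once, they gave 0 higher, 204 and 0, 295 and 0, 0 and 124, 98 and 50, and 0 and 274. At 4-fold they gave 3 and 58, 17 and 12, 16 lower, 4 and 9, 3 higher, and 10 and 72. Without the most abundant sequence of each member, NaIO4 left 3 higher in wild type, and the Mili knockout had 10 higher. With 20 to 31 nt reads these were 4 and 8, and with 1 mismatch 29 were higher in the Mili knockout. A minimum of 100 reads (333 members) left 58 lower with NaIO4 in wild type, and 20 reads without the immunoprecipitate (378 members), chosen after seeing the data, left 68.

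The share of member reads at 25 to 31 nt in wild type, 16.8%, became 11.8% of the 34 reads that match 1 gene, 20.5% with 1 mismatch, 35.5% of distinct sequences and 23.7% without the most abundant sequence. The T-first share, 63.3%, became 38.2% of reads that match 1 gene, 42.3% of distinct sequences and 55.1% without the most abundant sequence.

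Of values called at 2-fold, these changed direction with Mir-named reads as the denominator: the microRNA class (NaIO4 1.36 for wild type, 1.16 for the Hen1 knockout, ratio of both 0.851, Hen1 knockout 1.22), the gene transcript class (immunoprecipitate 11.6), the Gm-alone class (ratio of NaIO4 ratios 0.896, immunoprecipitate 3.05), and NaIO4 in wild type for Gm25022 (1.39) and Gm25943 (1.27). Uncalled values crossed 1 too, among them NaIO4 in wild type at 9.25 for the gene transcript class, 11.5 for the Gm-alone class and 14.8 for the repeat class, whose NaIO4 ratio in the Hen1 knockout became 2.89 and Hen1 ratio 2.40. With distinct sequences these did: NaIO4 in the Hen1 knockout for the microRNA class (4.23), Gm27299 (2.31) and Gm22761 (1.28, ratio of NaIO4 ratios 3.02), the Mili ratio of the repeat class (1.01), Gm26318 (1.21), Gm25190 (1.77), Gm23840 (1.77) and Gm22355 (1.96), NaIO4 in wild type for Gm22774 (0.971) and the Hen1 ratio of Gm26194 (0.932). Gm27299 with NaIO4 in the Hen1 knockout became 3.23 with reads split equally, 1.49 with 20 to 31 nt reads and 1.34 with 1 mismatch, and the Mili ratio of Gm25986 became 0.175 with 20 to 31 nt reads, from 4 reads against 0. A change to Mir-named reads as the denominator moves all ratios of a comparison by a common factor. The cause of the other changes was not tested. With 1 added to each count, all reads as the denominator or a minimum of 10 reads (475 members), all 12 counts stayed within 1.5 times. No paired analysis was possible because each group had 1 library.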
